A study of Rattus norvegicus with 138 samples.

Results

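The NMDA receptor subunit genes are the 6 genes Grin1 (ENSRNOG00000011726), Grin2a (ENSRNOG00000033942), Grin2b (ENSRNOG00000008766), Grin2c (ENSRNOG00000003280), Grin2d (ENSRNOG00000021063) and Grin3a (ENSRNOG00000005723). They were chosen by symbol, and each had a single entry among the 32883 genes of each of the 3 count tables. RNA was sequenced from punches of the nucleus of the solitary tract (NTS), the caudal ventrolateral medulla (CVLM) and the rostral ventrolateral medulla (RVLM) of female rats. The spontaneously hypertensive rats (SHR/NHsd) and their normotensive Wistar-Kyoto controls (WKY/NHsd) were both inbred strains. There were 5 rats of each strain at 8 wk, 4 WKY rats and 5 SHRs at 10 wk, and 3 WKY rats and 6 SHRs at each of 12, 16 and 24 wk of age. Each of the 46 rats gave 1 library per region, so the groups compared were separate animals and the regions were paired within a rat. Strain background and blood pressure cannot be told apart in this design, since every hypertensive rat was an SHR.

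NMDA receptors are glutamate-gated cation channels that pass calcium and open only when a co-agonist, glycine or D-serine, is also bound. Each channel combines GluN1, the subunit from Grin1 that binds the co-agonist, with GluN2 subunits that bind glutamate and set the open time, or with GluN3 subunits that lower calcium entry and the block by magnesium. In the medulla, glutamate released by baroreceptor afferents acts in the NTS, the CVLM holds GABA neurons that inhibit the RVLM, and RVLM neurons drive sympathetic outflow.

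Library totals ran from 5904570 to 17889406 counts with a median of 10143018, and the medians of the 3 regions were 9970376 (NTS), 10009206 (CVLM) and 10335110 (RVLM). The regional labels were checked against marker genes. Pnmt, the enzyme that makes adrenaline, had a median of 3.60 CPM (the count per 1000000 counts of the library) in NTS, 41.8 in CVLM and 19.7 in RVLM libraries, so this marker of adrenaline neurons was not highest in the RVLM. Chat, which makes acetylcholine, had medians of 61.0, 18.5 and 243 CPM in the same order. Library names ended in 1 for 32 rats and in 2 for 14 rats, a number the labels do not explain. The number 2 was on all 10 wk libraries and on 3 of the 5 WKY rats at 8 wk. It was also on 1 SHR each at 12 and 24 wk. The number was thus in part confounded with age, and at 8, 12 and 24 wk also with strain. Values of the subunit genes by this number are given after the regional results.

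All values below are CPM scaled with TMM factors over all libraries, and fold changes are log2 differences fitted on counts. Calls were made with edgeR's quasi-likelihood test where p, adjusted by Benjamini-Hochberg over the genes tested, was under 0.05. CPM are not corrected for transcript length, so levels were compared between groups for each gene and not between genes. The ratio of Grin2a to Grin2b given below is a description only.

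**Figure D1:**
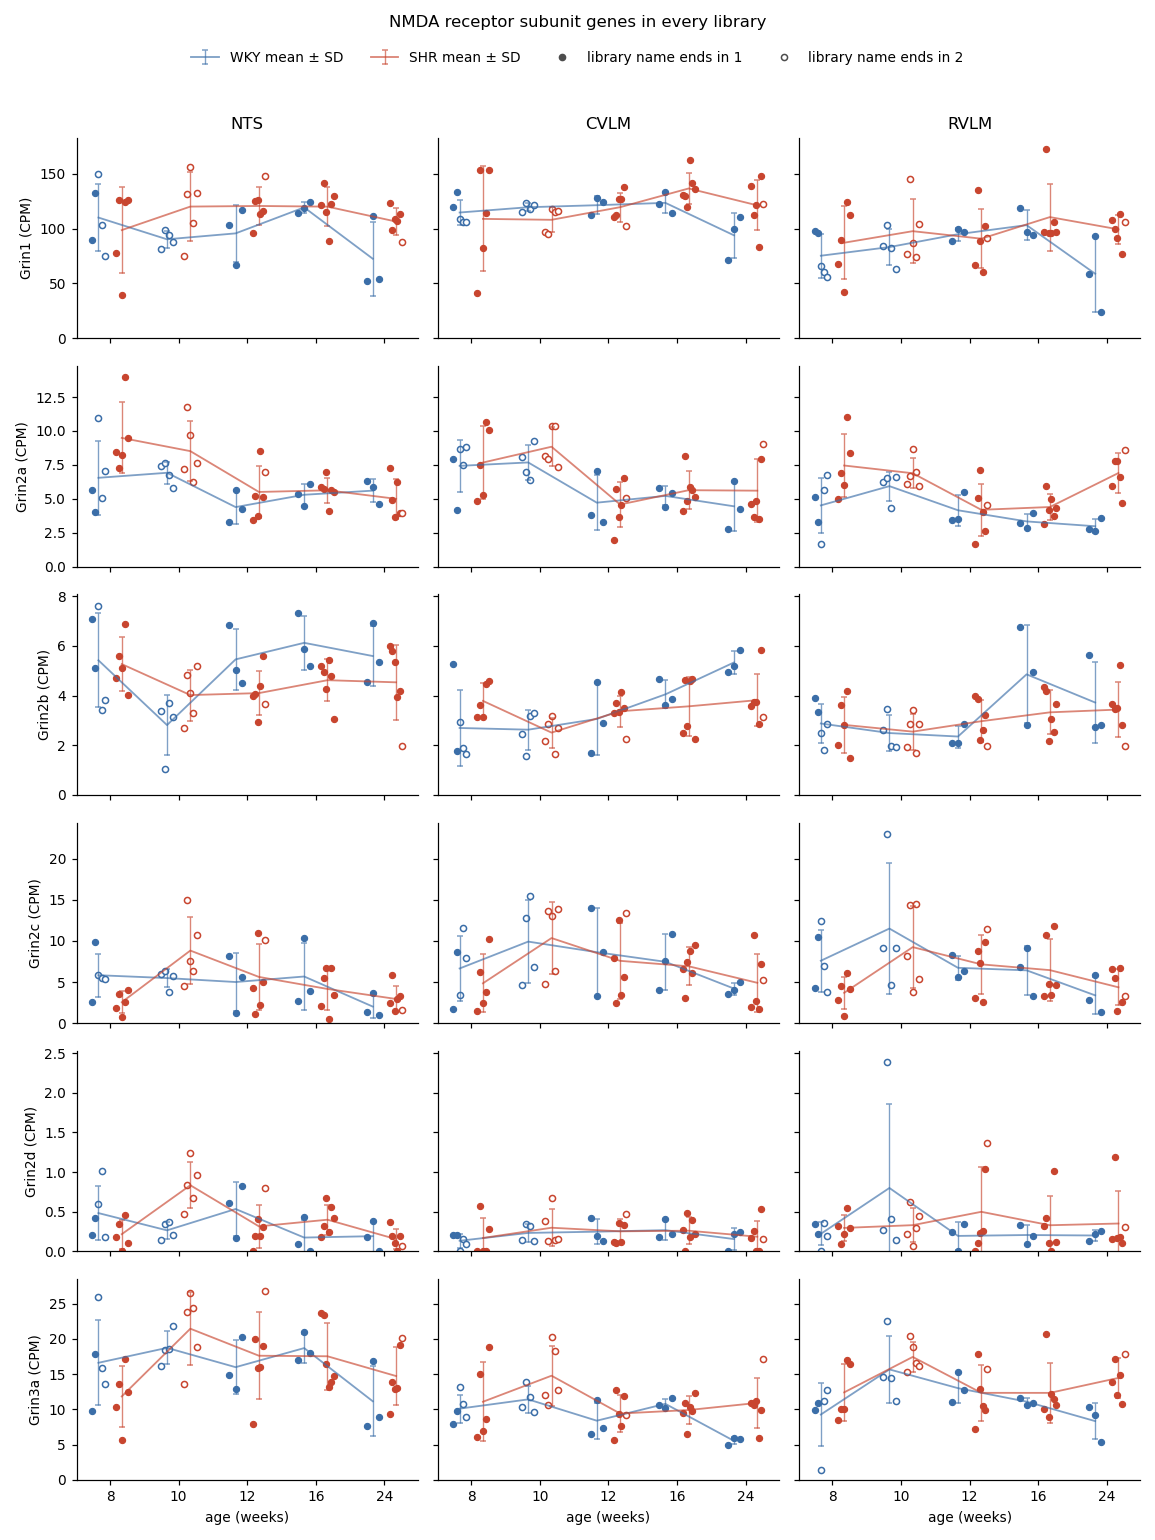
CPM (linear axis from 0) of the 6 subunit genes in every library, by age in weeks and region. Points are libraries (filled where the name ends in 1, open where it ends in 2), and lines with bars are the mean and SD of WKY rats (blue) and SHRs (red); in the RVLM at 24 wk the Grin2a points of the 6 SHRs, 4.68 to 8.62 CPM, lie above those of the 3 WKY rats, 2.61 to 3.59 CPM.

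Grin1, the obligatory subunit, was read at 24.5 to 172 CPM over all libraries. Its mean was 107.5 CPM ± 25.9 (SD, n = 46) in NTS, 117.6 ± 21.5 in CVLM and 91.4 ± 25.9 in RVLM libraries. Within a rat the RVLM had less Grin1 than the other regions. The RVLM level was above the CVLM level in only 6 of 46 rats (log2 difference −0.42, SE 0.06, edgeR adjusted p = 3.7e-08). The NTS level was above the RVLM level in 30 of 46 rats (0.23, SE 0.06, edgeR adjusted p = 7.9e-04). The NTS level was also below the CVLM level and exceeded it in 12 of 46 rats (−0.18, SE 0.06, edgeR adjusted p = 0.00896), but without the animal as a replicate block the difference was −0.16 with an edgeR adjusted p of 0.0723, and in SHRs alone it was −0.09 with an edgeR adjusted p of 0.351. The count of regional calls is set against all genes further on.

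Grin2a, which encodes the GluN2A subunit of mature synapses, was read at a mean of 6.37 CPM ± 2.25 (SD, n = 46) in NTS, 6.27 ± 2.22 in CVLM and 5.27 ± 2.02 in RVLM libraries. It was lower in the RVLM than in the NTS (NTS minus RVLM 0.34, SE 0.08, edgeR adjusted p = 2.7e-04, higher in the NTS in 33 of 46 rats). It was also lower in the RVLM than in the CVLM (RVLM minus CVLM −0.30, SE 0.08, edgeR adjusted p = 0.00202, higher in the RVLM in 9 of 46 rats). The NTS and the CVLM differed by 0.04 with a 95% confidence interval from −0.12 to 0.20, which did not pass the test. In SHRs alone the first difference was 0.22 (edgeR adjusted p = 0.0520) and the second −0.13 (edgeR adjusted p = 0.306), so neither was called there.

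Grin2b encodes GluN2B, the subunit of slower channels that is abundant early in development. It averaged 4.69 CPM ± 1.40 (SD, n = 46) in NTS, 3.42 ± 1.13 in CVLM and 3.09 ± 1.11 in RVLM libraries. Its NTS level exceeded the RVLM level by 0.61 (SE 0.08, edgeR adjusted p = 9.4e-10) and the CVLM level by 0.46 (SE 0.08, edgeR adjusted p = 1.1e-06). The NTS level was the higher in 42 and 38 of the 46 rats, respectively. The CVLM and RVLM did not differ beyond their spread (RVLM minus CVLM −0.15, 95% confidence interval −0.32 to 0.03).

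Grin2c, the GluN2C gene best known from cerebellar granule cells, varied widely between libraries of the same group. Its mean was 4.84 CPM ± 3.21 (SD, n = 46) in NTS, 7.09 ± 4.0 in CVLM and 6.65 ± 4.21 in RVLM libraries. The NTS was the low region, by 0.69 against the CVLM (NTS minus CVLM −0.69, SE 0.16, edgeR adjusted p = 6.9e-05) and by 0.56 against the RVLM (NTS minus RVLM −0.56, SE 0.16, edgeR adjusted p = 0.00104). In each of these pairs the NTS level was the higher in 11 of 46 rats. The CVLM and RVLM did not differ beyond their spread (RVLM minus CVLM −0.13, 95% confidence interval −0.44 to 0.17). Of the 4 markers of cerebellar granule cells, Gabra6 had a median of 0 CPM in every region. Medians in the order NTS, CVLM and RVLM were 4.01, 1.31 and 0.516 CPM for Neurod1, 0.115, 2.31 and 0.0949 for Cbln3, and 0.360, 0.540 and 0.111 for Fat2. Neurod1 was highest in the NTS and the other two in the CVLM, and their part in the Grin2c differences was not tested.

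Grin2d, the GluN2D gene, was close to the limit of detection and was not tested in any region, because it did not reach the minimum expression. Its median count was 3, 2 and 2 in the NTS, CVLM and RVLM, and the highest counts were 22, 8 and 33. It was at 0 in 17 libraries (5 NTS, 8 CVLM and 4 RVLM), where a count of 0 allows up to 3 counts, or 0.237 to 0.514 CPM depending on the library. This limit covers counting error only. The mean levels were 0.363 CPM ± 0.295 (SD, n = 46) in NTS, 0.222 ± 0.167 in CVLM and 0.356 ± 0.428 in RVLM libraries. Strain, age and regional differences in Grin2d were not tested in the main fits. It entered the alternative strain and age fits with no filter on low counts, and its values there are not reported here. In the NTS at 10 wk, a group chosen after its values were seen, the 5 SHRs had 0.473, 0.834, 1.24, 0.671 and 0.959 CPM (counts of 7 to 22) and the 4 WKY rats 0.142, 0.347, 0.369 and 0.208 CPM (counts of 2 to 6). The means were 0.835 ± 0.290 (SD, n = 5) and 0.266 ± 0.110 (n = 4). At 8, 12, 16 and 24 wk the NTS means were 0.218, 0.317, 0.401 and 0.156 CPM in SHRs. In WKY rats they were 0.484, 0.535, 0.176 and 0.193 CPM, so the direction varied with age. No strain difference is drawn from these counts.

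Grin3a, which encodes the glycine-binding GluN3A subunit, showed the clearest order of regions. Its mean was 16.5 CPM ± 5.2 (SD, n = 46) in the NTS, 12.8 ± 4.1 in the RVLM and 10.4 ± 3.5 in the CVLM. The NTS was above the CVLM in 42 of 46 rats (0.69, SE 0.08, edgeR adjusted p = 1.8e-11). The NTS was above the RVLM in 36 rats (0.37, SE 0.08, edgeR adjusted p = 4.4e-05), and the RVLM above the CVLM in 37 rats (0.32, SE 0.08, edgeR adjusted p = 9.6e-04). In WKY rats alone the last difference was 0.30 with an edgeR adjusted p of 0.160.

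**Figure D2:**
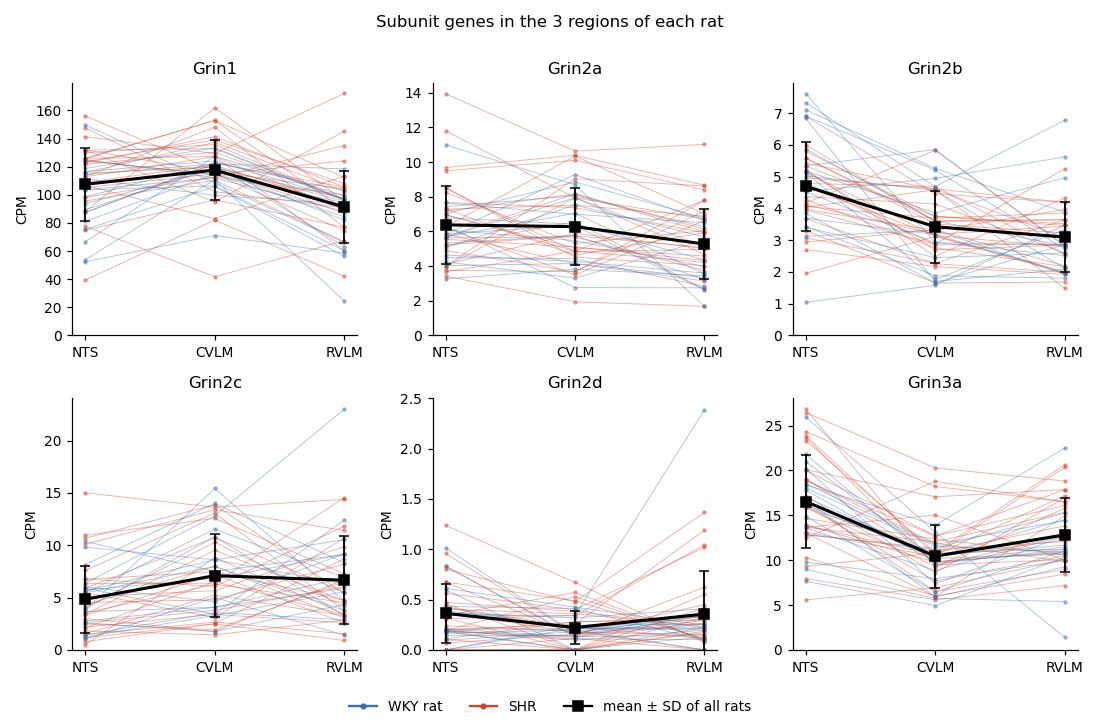
CPM (linear axis) of the 6 subunit genes in the NTS, CVLM and RVLM, with a thin line for each of the 46 rats (WKY blue, SHR red) and the mean ± SD of all rats in black. Mean Grin3a ran 16.5, 10.4 and 12.8 CPM and mean Grin1 107.5, 117.6 and 91.4 CPM over the NTS, CVLM and RVLM, while the highest Grin2d value of any library was 2.39 CPM.

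Regional differences were common among all genes, so the members' count says little about them as a set. Of the 15 comparisons of a tested subunit gene between 2 regions, 12 were called, and none reached a 2-fold change with an adjusted p of at most 0.01. For NTS against RVLM 5 of 5 subunit genes were called, where 72.7% of the 14043 tested genes were. For NTS against CVLM 4 of 5 were called, where 65.9% of all genes were. For RVLM against CVLM 3 of 5 were called, against 54.0% of all genes. Neuron markers moved with region as well: against the RVLM, 7 of 8 were called lower in the NTS and 1 was called higher. Against the CVLM, 5 of 8 were called lower in the NTS, and the fitted differences of all 8 were negative. Grin1, Grin2a, Grin2b and Grin3a were called higher in the NTS against the RVLM, where 7 of these markers were called lower. In bulk tissue, fewer cells of a type and less RNA per cell cannot be told apart, and the part of cell composition in the regional differences was not tested.

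Between strains few differences of the NMDA receptor subunit genes passed the test, as was so for all genes (shares below). Over the 5 ages and 3 regions, 46 of the 75 fitted strain differences of the 5 tested genes were positive (higher in SHRs) and 29 negative. Of these, 2 were called, both higher in SHRs and both at 24 wk, namely Grin2a in the RVLM and Grin3a in the CVLM. DESeq2 also called 2. An unadjusted edgeR p under 0.05 was seen for 8 of 75. Over all 13411 genes tested in the RVLM, 742 had such a p at 16 wk and 3704 at 8 wk. These were the lowest and highest numbers among the 15 comparisons by region and age. None of the 75 reached 2-fold with an adjusted p of at most 0.01, a rule met by 1.12% of all strain comparisons.

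Those counts stand beside the background of each comparison. In the NTS, 0 of 5 subunit genes were called at any age, where 5.79%, 4.44%, 3.10%, 1.73% and 2.46% of genes were called at the 5 ages from 8 to 24 wk. In the CVLM, 0 of 5 were called up to 16 wk and 1 of 5 at 24 wk, against 7.64%, 3.18%, 2.62%, 2.27% and 7.13% of genes. In the RVLM, 0 of 5 were called up to 16 wk and 1 of 5 at 24 wk, against 9.78%, 2.30%, 1.70%, 1.65% and 2.24% of genes. With 5 genes, 1 call is the smallest count above 0.

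Grin2a in the RVLM gave the largest strain difference among these 75 that passed the test. At 24 wk the 3 WKY rats had 2.74, 2.61 and 3.59 CPM, and the 6 SHRs ran from 4.68 to 8.62 CPM with a median of 7.21. Every SHR lay above every WKY rat. The means were 6.90 CPM ± 1.45 (SD, n = 6) in SHRs and 2.98 ± 0.53 (n = 3) in WKY rats. The fitted log2 difference was 1.22 (SE 0.33, 95% confidence interval 0.55 to 1.89, edgeR adjusted p = 0.0354), a 2.33-fold higher level in SHRs. These values rest on 21 to 28 counts per WKY library and 39 to 137 per SHR library. The call was not firm: it was kept in 2 of the 9 fits that left out 1 of these rats, those without SHR replicate 1 or 5 (all 9 fits 1.13 to 1.33 on the log2 scale, highest edgeR adjusted p = 0.186, without WKY replicate 1). Of the 6 SHRs, replicate 6, whose library name ends in 2, was the highest, and without it the difference was 1.14 (edgeR adjusted p = 0.0747).

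The same gene at the other ages gave smaller differences. At 8 wk the WKY rats had 5.14, 3.33, 1.67, 5.69 and 6.76 CPM and the SHRs 4.96, 6.87, 6.04, 11.0 and 8.39. The groups overlapped, and the difference of 0.69 (SE 0.27) had an edgeR adjusted p of 0.0933. Without SHR replicate 1 it was 0.82 (edgeR adjusted p = 0.0477) and without WKY replicate 5 it was 0.89 (edgeR adjusted p = 0.0431). At 10 wk the 4 WKY rats had 4.35 to 6.63 CPM (median 6.38) and the 5 SHRs 5.92 to 8.66 (median 6.72). At 12 wk the ranges were 3.43 to 5.50 CPM in WKY rats and 1.68 to 7.16 in SHRs, and at 16 wk 2.83 to 3.97 and 3.14 to 5.97. The groups overlapped at each of these 3 ages, with fitted differences of 0.21, 0.03 and 0.40.

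Averaged over the 5 ages, Grin2a in the RVLM was higher in SHRs by 0.51 on the log2 scale (SE 0.14, 95% confidence interval 0.23 to 0.78, edgeR adjusted p = 0.00867), or 1.42-fold. This was the only call among the 15 averaged differences of the 5 tested genes. The RVLM share of called genes was 10.8%, so 1 of 5 there was set against about that share. In the NTS (11.2%) and the CVLM (12.3%) 0 of 5 were called. DESeq2 gave the same count of 1. Of the 15, 3 had an unadjusted edgeR p under 0.05. Such a p was seen for 2926 of 13793 genes in the NTS, 3008 of 13408 in the CVLM and 2862 of 13411 in the RVLM. Unlike the value at 24 wk, the averaged Grin2a difference in the RVLM was called in all 46 fits that left out 1 rat (0.46 to 0.56, edgeR adjusted p between 0.0022 and 0.0210). It was also called without the 10 wk libraries (0.58, edgeR adjusted p = 0.0245) and with the library number as a term (0.52, edgeR adjusted p = 0.00698). In the NTS the averaged Grin2a difference was 0.22 (95% confidence interval −0.02 to 0.46) and in the CVLM 0.12 (−0.15 to 0.39).

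Markers of cell types were read beside this result. Of the 8 neuron markers, 0 were called in the RVLM at 24 wk and 5 were positive, with a median of 0.06 against a median of 0.05 over all genes. Their summed level ran from 21319 to 31992 CPM in WKY rats and from 18980 to 30342 CPM in SHRs. Among the markers of other cells, only the oligodendrocyte gene Mobp was called, lower in SHRs by 1.0 on the log2 scale (difference −1.0). The summed oligodendrocyte level ran from 34883 to 43179 CPM in WKY rats and 33138 to 44055 in SHRs. The 4 choroid plexus and 4 cerebellar granule cell markers did not reach the minimum expression in the RVLM, and at 24 wk their sums stayed at or under 3.12 and 1.97 CPM. Averaged over the ages, 0 of 8 neuron markers were called in the RVLM, with a median of −0.02.

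Whether the Grin2a difference was particular to the RVLM was tested by fitting the 3 regions together, with each animal as a block. Averaged over ages, the strain difference in the RVLM exceeded that in the CVLM by 0.37 (SE 0.17, edgeR adjusted p = 0.869) and that in the NTS by 0.27 (NTS minus RVLM −0.27, SE 0.17, edgeR adjusted p = 0.541). At 24 wk the NTS minus RVLM value was −1.39 (SE 0.40, edgeR adjusted p = 0.447), since in the NTS the 24 wk difference was −0.17. None of these passed, so Grin2a was not shown to differ in its strain effect between regions. Over all subunit genes 0 of 15 averaged contrasts were called (1 at an unadjusted edgeR p under 0.05), where 1.82% of genes were called for NTS against RVLM, 0.449% for NTS against CVLM and 0.320% for RVLM against CVLM. At single ages 0 of 75 were called (3 at an unadjusted edgeR p under 0.05), against 0.131% of all such tests. Without the animal as a block both counts of calls were again 0. For the averaged contrasts 1707 (NTS against RVLM), 1052 (NTS against CVLM) and 728 (RVLM against CVLM) of 14043 genes had an unadjusted edgeR p under 0.05. At single ages 211 to 2898 genes had one.

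Grin3a in the CVLM was the other call. At 24 wk the 3 WKY rats had 4.94, 5.88 and 5.73 CPM, and the 6 SHRs had 10.8, 10.6, 11.1, 5.95, 9.85 and 17.1 CPM. The groups did not overlap, but SHR replicate 4, at 5.95 CPM, was level with the WKY rats. The means were 10.9 CPM ± 3.6 (SD, n = 6) and 5.52 ± 0.50 (n = 3), and the fitted difference was 0.95 (SE 0.30, 95% confidence interval 0.35 to 1.56, edgeR adjusted p = 0.0432), or 1.93-fold. It was called in 3 of the 9 fits that left out 1 of these rats, those without SHR replicate 2, 4 or 5 (all 9 fits 0.77 to 1.08, highest edgeR adjusted p = 0.17, without WKY replicate 1). Without SHR replicate 6, the highest library and the one with the number 2, it was 0.77 with an edgeR adjusted p of 0.128.

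At the 4 earlier ages the CVLM difference in Grin3a was between −0.12 and 0.38 and was not called. WKY rats at 16 wk had 10.2 to 11.6 CPM, so the low WKY level was seen at 24 wk and not at 16 wk. Averaged over ages the Grin3a difference in the CVLM was 0.30 (95% confidence interval 0.05 to 0.55, edgeR adjusted p = 0.118). In the RVLM it was 0.29 (−0.003 to 0.58, edgeR adjusted p = 0.241), and in the NTS 0.03 (−0.24 to 0.30). At 24 wk in the RVLM the WKY rats had 10.3, 9.25 and 5.39 CPM and the SHRs 10.8 to 17.9 CPM. These groups did not overlap either, yet the difference of 0.79 (SE 0.34) had an edgeR adjusted p of 0.276.

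In the CVLM at 24 wk, 1 of 8 neuron markers was called, Stmn2, a protein of growing neurites, which was lower in SHRs (−0.33). The summed neuron level was 9375 to 10769 CPM in WKY rats and 9374 to 12405 in SHRs. The 3 cholinergic markers were not called, but their sum was 44.1 to 83.1 CPM in WKY rats and 99.9 to 159 in SHRs, with no overlap. Mobp of oligodendrocytes (−1.02) and Aif1 of microglia (−0.71) were lower in SHRs, and the choroid plexus marker Kl was higher (2.24), with a summed choroid plexus level of 0.113 to 1.03 CPM in WKY rats and 1.79 to 6.29 in SHRs. The part of these cells in the Grin3a difference was not tested.

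**Figure D3:**
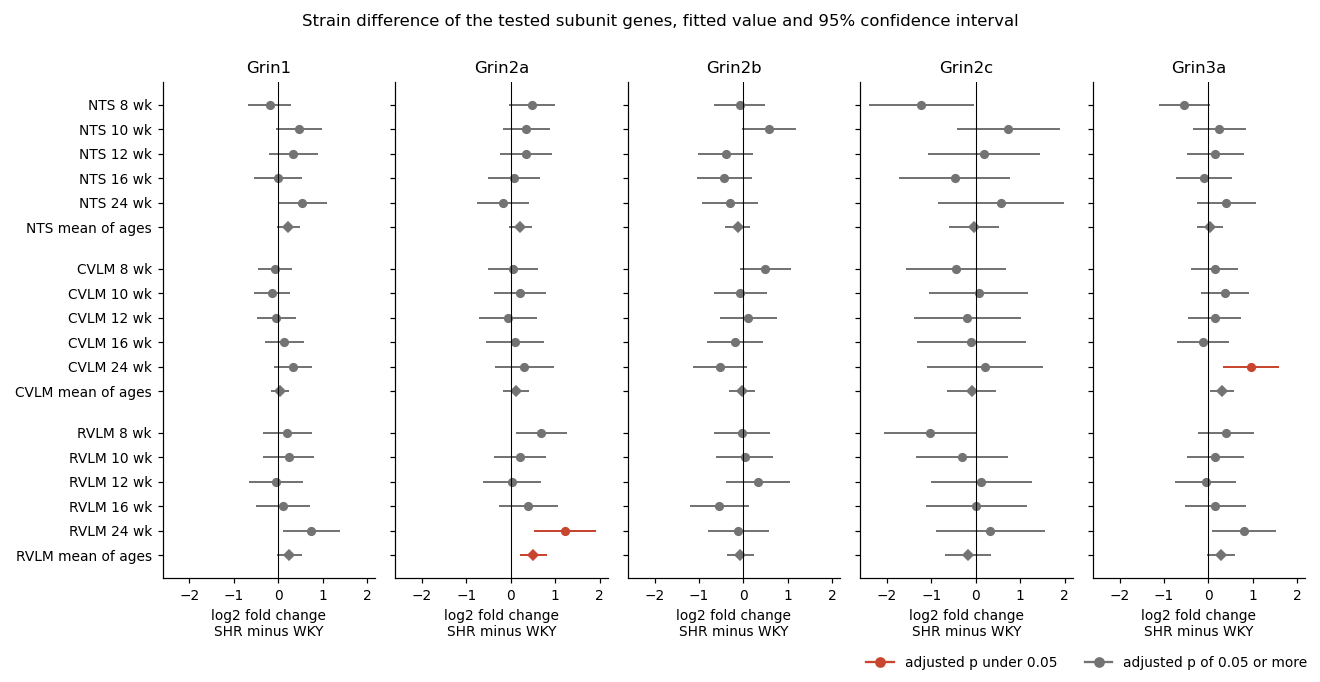
Fitted log2 fold change (SHR minus WKY) with its 95% confidence interval for the 5 tested subunit genes in each region at each age (circles) and averaged over the 5 ages (diamonds), red where the adjusted p was under 0.05. The red values are Grin2a in the RVLM at 24 wk (1.22) and averaged (0.51) and Grin3a in the CVLM at 24 wk (0.95).

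Grin1 was not called between strains at any age. In the RVLM at 24 wk the WKY rats had 58.5, 93.6 and 24.5 CPM and the SHRs 76.9 to 113 CPM with a median of 103. The spread among WKY rats was wide and the groups overlapped through WKY replicate 2 (difference 0.75, SE 0.30, edgeR adjusted p = 0.237). In the NTS at 24 wk the same rats had 52.3, 111 and 53.8 CPM, against 87.5 to 124 CPM in SHRs (0.54, SE 0.27, edgeR adjusted p = 0.373). Without WKY replicate 2 the differences were 1.25 in the RVLM (edgeR adjusted p = 0.0387) and 1.01 in the NTS (edgeR adjusted p = 0.0295). The RVLM difference fell to 0.35 without WKY replicate 3, and the NTS difference to 0.35 without WKY replicate 1. Neither of these was called, so both values depended on single WKY rats in either direction. In the CVLM, where the WKY rats had 71.0, 99.6 and 111 CPM, the difference was 0.33 (SE 0.20). Averaged over ages Grin1 differed by 0.23 in the NTS (95% confidence interval 0.002 to 0.46, edgeR adjusted p = 0.229), by 0.04 in the CVLM (−0.13 to 0.22) and by 0.25 in the RVLM (−0.01 to 0.50).

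Grin2b was not called between strains in any of its 15 comparisons. Its averaged differences were −0.13 in the NTS (95% confidence interval −0.39 to 0.14), −0.03 in the CVLM (−0.30 to 0.23) and −0.06 in the RVLM (−0.35 to 0.23). At single ages its fitted differences ran from −0.54 (RVLM, 16 wk) to 0.57 (NTS, 10 wk). In the CVLM at 8 wk the WKY rats had 5.26, 1.76, 2.92, 1.88 and 1.65 CPM and the SHRs 3.13 to 4.58. Without WKY replicate 1, the highest of its group, this difference of 0.50 became 0.87 (edgeR adjusted p = 0.0291). The name of that library ends in 1, and at 8 wk the number 2 was on WKY libraries only.

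Grin2c was measured with wide error. At 8 wk in the NTS the WKY rats had 2.57, 9.82, 5.89, 5.45 and 5.43 CPM and the SHRs 1.80, 3.53, 0.780, 2.6 and 4.04. The groups overlapped in the lowest WKY rat, and the difference of −1.23 (SE 0.57) had an edgeR adjusted p of 0.183. The replicate number as a replicate block gave −1.24 with an edgeR adjusted p of 0.0418. With the library number as a term the difference was −1.15 (edgeR adjusted p = 0.517). At 8 wk the number 2 was on WKY libraries only. In the RVLM at 8 wk the WKY range was 3.77 to 12.4 CPM and the SHR range 0.895 to 6.06 (−1.03, SE 0.51, edgeR adjusted p = 0.180). In the CVLM at 8 wk it was −0.44 (SE 0.54). At the later ages the Grin2c differences were between −0.47 and 0.73, and averaged over ages they were −0.04 in the NTS (95% confidence interval −0.59 to 0.51), −0.09 in the CVLM (−0.62 to 0.43) and −0.18 in the RVLM (−0.66 to 0.31).

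The change of the strain difference between ages was tested in 1 step for each gene and region. It was called for 0 of 15 subunit genes, with 0 at an unadjusted edgeR p under 0.05 and 0 called by DESeq2. Such changes were rare among all genes too, called for 0.0145%, 0.0224% and 0.00746% of genes in the NTS, CVLM and RVLM. So the calls at 24 wk were not shown to differ from the values at other ages.

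From 8 to 24 wk within a strain, 1 of 30 comparisons of the tested subunit genes was called, and 6 had an unadjusted edgeR p under 0.05. Grin2b in the CVLM of WKY rats was higher at 24 wk, when the 3 rats had 4.94, 5.20 and 5.85 CPM, than at 8 wk (values above). The difference was 1.04 (SE 0.30, 95% confidence interval 0.43 to 1.66, edgeR adjusted p = 0.0206), but WKY replicate 1 at 8 wk, at 5.26 CPM, overlapped the older rats. It was called in 4 of the 8 fits that left out 1 of these rats (0.92 to 1.41) and was lost without 8 wk replicate 4 or 5 or 24 wk replicate 1 or 3. Replicate 5 of each strain at 8 wk is a CVLM library whose age field gives 10 wk and whose title gives 8 wk, and without both libraries the difference was 0.92 (edgeR adjusted p = 0.0632). With the library number as a term it was 0.73 (edgeR adjusted p = 0.221), and 3 of the 5 WKY libraries at 8 wk but none at 24 wk carried the number 2. In SHRs the same gene and region differed by 0.03 (95% confidence interval −0.49 to 0.55).

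The background of these age comparisons was uneven. An unadjusted edgeR p under 0.05 was seen for 3065 and 1073 of 13793 genes in the NTS of WKY rats and SHRs. In the same order it was seen for 4141 and 1052 of 13408 in the CVLM and 2641 and 1038 of 13411 in the RVLM. In the CVLM of WKY rats 13.7% of genes were called and 1 of 5 subunit genes. In the other cases 0 of 5 were called, against 0.649% of genes in the CVLM of SHRs, 0.464% and 0.232% in the NTS of WKY rats and SHRs, and 0.179% and 0.358% in the RVLM of WKY rats and SHRs. Grin2a in the NTS of SHRs was 8.48, 7.28, 8.25, 13.9 and 9.50 CPM at 8 wk and 3.66 to 7.29 CPM at 24 wk. The ages overlapped only through the highest library at 24 wk, replicate 1, and the difference of −0.94 had an edgeR adjusted p of 0.0771, against 0.0303 by DESeq2 and 0.0482 with the library number as a term. Without that library it was −1.08 (edgeR adjusted p = 0.0243). Grin3a in the CVLM of WKY rats differed by −0.82 (edgeR adjusted p = 0.0645), against −0.84 by DESeq2 (adjusted p = 0.0442) and −0.90 without 8 wk replicate 1 (edgeR adjusted p = 0.0465). Grin1 in the NTS of WKY rats was called only without 24 wk replicate 2 (−1.11, edgeR adjusted p = 0.0178). Without 24 wk replicate 1 it was −0.43 (edgeR adjusted p = 0.534).

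Levels by the number that ends the library name are given as a description, with no test. Means of the 96 libraries with the number 1 and the 42 with the number 2 were 107.0 CPM ± 27.5 and 102.1 ± 24.6 (SD) for Grin1. They were 5.42 ± 2.09 and 7.24 ± 1.96 for Grin2a, 4.11 ± 1.32 and 2.87 ± 1.16 for Grin2b, and 5.18 ± 3.16 and 8.51 ± 4.52 for Grin2c. For Grin2d they were 0.260 ± 0.226 and 0.436 ± 0.448, and for Grin3a 12.1 ± 4.3 and 16.0 ± 5.4. Among the genes other than Grin1, Grin2b alone had the lower mean under the number 2, at 3.70 against 5.12 CPM in the NTS, 2.49 against 3.82 in the CVLM and 2.41 against 3.39 in the RVLM. Age and number cannot be told apart at 10 wk. Both strains at 10 wk carried the same number, so the strain differences of that age were within it. At 8 wk the number 2 was on WKY libraries only, and at 12 and 24 wk on SHR libraries only. Strain differences at those 3 ages were in part confounded with it.

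**Figure D4:**
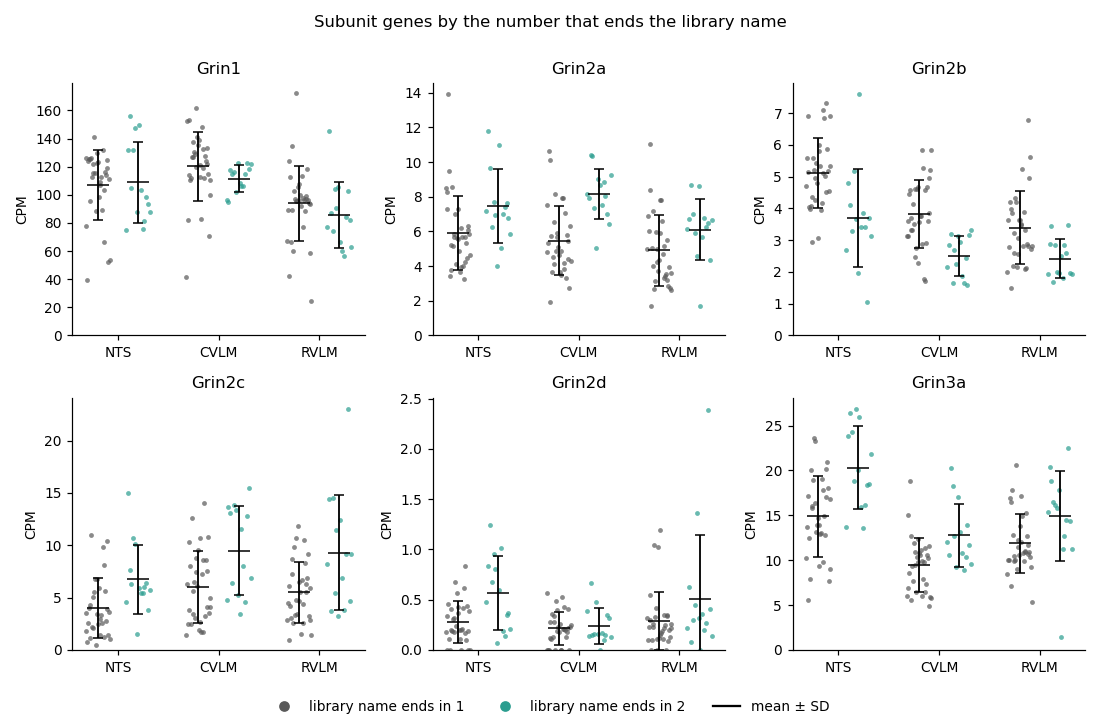
CPM (linear axis) of the 6 subunit genes by region and by the number that ends the library name, with a point for each library and the mean ± SD of each set. Grin2b lay lower and Grin2a, Grin2c and Grin3a higher in mean under the number 2 in all 3 regions, for example Grin3a at 20.3 against 14.9 CPM in the NTS.

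The log2 ratio of Grin2a to Grin2b was read in each library as a description. It was 0.52 ± 0.54 (SD, n = 28) in SHRs and 0.30 ± 0.86 (n = 18) in WKY rats in the NTS. The values were 0.83 ± 0.68 and 0.89 ± 0.88 in the CVLM, and 0.91 ± 0.78 and 0.45 ± 0.85 in the RVLM. The strain means differed most in the RVLM, the region where Grin2a was called. Grin2a of the same libraries is the numerator, so the ratio is no separate observation from that call. Because neither transcript length nor the library number is taken into account, the ratio does not give the proportion of the subunits.

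Over the 30 group means of region, strain and age, the genes with the most similar profile were found for each tested subunit gene among 13013 others. The points share libraries, rats and the library number, and Pearson r is given as a description. Nearest to Grin1 were Arhgap44 (r = 0.894), the sodium-activated potassium channel gene Kcnt1 (0.888) and Ubfd1 (0.883). Nearest to Grin2a were Ppp1r9a (0.813), which encodes the spine protein neurabin, the mitochondrial coactivator Ppargc1a (0.807) and Fam126b (0.792). Grin2b lay nearest to Cst6 (0.861), Pgap1 (0.853) and AABR07058539.1 (0.837), and Grin2c to Dnajc21 (0.945) and Aes (0.944). For Grin3a they were the receptor kinase gene Grk3 (0.936), the lipid phosphatase gene Ocrl (0.918) and the lipid flippase gene Atp8a1 (0.917). Between members the most negative value was that of Grin2b with Grin2c (r = −0.593), and their means by library number differed in opposite directions.

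Other genes of the receptor pathway were taken from lists of postsynaptic scaffolds, kinases and phosphatases that act on the receptor, co-agonist and glutamate handling, downstream enzymes and surface partners, and receptor genes outside the members. Of their 54 genes 50 were tested in at least 1 region, and 11 were called in at least 1 of the 15 strain comparisons, 7 of them only higher and 4 only lower in SHRs. Of all 14043 tested genes, 24.0% were called in at least 1 of these comparisons. Csnk2a1, a catalytic subunit of casein kinase 2, which phosphorylates GluN2B, was called higher in SHRs in 14 of 15 comparisons (0.36 to 0.99). Homer2, a scaffold linking metabotropic glutamate receptors to the postsynaptic density, was called lower in SHRs at 8 wk in all 3 regions (NTS −2.24, CVLM −1.61, RVLM −2.24).

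In the RVLM, averaged over ages, calls in the lists went both ways. Of 13 tested scaffolds, Dlgap4 was higher (0.21) and Homer2 lower (−1.43), with a list median of 0.07. Of 14 kinases and phosphatases, Csnk2a1 (0.65) and Camk2d (0.25) were higher and Camk2g lower (−0.31), with a median of 0.05. Of 9 genes of co-agonist and glutamate handling, Shmt2, which makes glycine from serine in mitochondria, was lower (−0.22), with a median of −0.07. Of 10 downstream and surface genes, the calcium-responsive kinase gene Ptk2b (0.38) and the Ras activator gene Rasgrf1 (0.29) were higher, with a median of 0.18. The median over all genes was 0.01, and 10.8% of all genes tested in the RVLM were called in this comparison.

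At 24 wk, the age of the subunit calls, the lists held few calls. Of all genes tested, 2.24% were called in the RVLM and 7.13% in the CVLM at that age. In the RVLM 0 of 13 scaffolds, 1 of 14 kinases and phosphatases (Csnk2a1, 0.51, edgeR adjusted p = 0.0351), 0 of 9 co-agonist and glutamate genes and 0 of 10 downstream genes were called, with medians of 0.28, 0.39, −0.17 and 0.26 beside 0.05 over all genes. In the CVLM the counts were 0 of 13, 1 of 14 (Csnk2a1, 0.62), 0 of 9 and 0 of 10, with medians of 0.23, 0.15, −0.05 and 0.10 beside 0.02 over all genes.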

How the data were processed

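The tables held expected counts per gene for 46 libraries of each region, deposited by the authors after alignment and counting with RSEM (STAR, rn6, per the methods), and 4.88 to 5.02% of values were not whole numbers. The methods also name a ComBat_seq adjustment of counts, and whether the deposited values carry it is not given in the sources used here. Expected counts were rounded. A gene was tested in a region if its largest rlog value there was at least 3.5, which left 13793, 13408 and 13411 genes in the NTS, CVLM and RVLM and 14043 in at least 1 region. For each region, edgeR 4.0.16 (R 4.3.3, TMM, robust quasi-likelihood test) was fitted over 10 groups of strain and age. Regions were compared by fitting the 3 regions together with each animal as a block, from the name each rat carries in all regions. P-values were adjusted over all tested genes, and intervals are 95%. CPM used TMM factors over all libraries and 0.5 as pseudocount on the log2 scale. Steps were tested on simulated data. The members and gene lists were chosen with earlier results of these data known, and the text names all members, at most the 4 called list genes with the largest change in a comparison, and the 3 genes nearest each tested member, of which 1 near Grin2c is not reported here. Of 96 list and marker symbols, 92 matched 1 entry, 3 none and 1 more than 1. Whether replicate numbers pair the strains was not settled. Of 54 same-number pairs, 31 correlated above 0.1 (−0.29 to 0.52). Libraries of the same rat did so in 28 (NTS and RVLM), 31 (NTS and CVLM) and 23 (RVLM and CVLM) of 46 rats. This check cannot tell paired from unpaired libraries, and the main strain tests used no replicate pairing. No 2 of 270 library pairs within groups agreed within counting noise (lowest chi-square per gene 4.90). The titles and age labels of 2 CVLM libraries conflicted, and they were placed at 8 wk by title. Alternatives were DESeq2 1.42.0, its size factors, no filter, the library number or replicate number as a term, each age alone, and leaving out libraries. Coordinates, protein sequences and transcript lengths were not used here.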

Additional observations from a re-analysis of the deposited data

Results flagged for a closer look

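In groups of 4 to 10 libraries, the highest or lowest library stood apart from the rest by Dixon's criterion in 8 of 126 groups of the 6 subunit genes, and chance alone marks about 1 in 20 groups. In the RVLM of SHRs at 16 wk, replicate 2 stood high for Grin1 (172 CPM, the others 95.5 to 106) and also for Grin3a (20.6 CPM, the others 8.96 to 12.2). In the RVLM of WKY rats at 8 wk, replicate 3 stood low for Grin3a (1.39 CPM, the others 9.93 to 12.7), and the same library had the lowest Grin2a of its group (1.67 CPM) and the highest Grin2c (12.4 CPM). In the RVLM of WKY rats at 10 wk, replicate 3 stood low for Grin2a (4.35 CPM, the others 6.26 to 6.63), and replicate 2 stood high for Grin2d (2.39 CPM, the others 0.143 to 0.408). Grin2d also stood high in replicate 2 of the SHRs at 24 wk in the RVLM (1.19 CPM, the others 0.104 to 0.315). In the CVLM, Grin2a stood low in replicate 2 of the WKY rats at 8 wk (4.15 CPM, the others 7.52 to 8.86), and Grin2b stood high in replicate 5 of the SHRs at 24 wk (5.83 CPM, the others 2.87 to 3.75). Of the 8 libraries and genes, 6 lay in the RVLM. The causes were not tested.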

How the results depend on the processing

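The count of subunit genes called between strains at single ages, 2 of 75, was 2 with DESeq2, with its size factors and without the 2 libraries of conflicting age labels. It was 0 with no filter on low counts. It was 1 each with the library number as a term and with each age fitted alone, in both cases Grin2a in the RVLM at 24 wk. The replicate number as a replicate block also gave 1, but kept neither main call. That 1 was Grin2c in the NTS at 8 wk, lower in SHRs (−1.24, edgeR adjusted p = 0.0418). Leaving out 1 rat gave 0 to 3. Grin2d entered the fits with no filter but is not counted in any of these numbers. Grin2a in the RVLM at 24 wk was 1.23 (edgeR adjusted p = 0.0521) with no filter and 1.27 (0.125) with the replicate block, and Grin3a in the CVLM at 24 wk was 1.00 (0.0567) with no filter, 0.86 (0.0630) with the library number, 1.00 (0.0893) with the age alone and 0.93 (0.0977) with the replicate block. The count over 24 against 8 wk, 1 of 30, was 0 with no filter and without the 2 libraries of conflicting labels, 3 with DESeq2, and 0 to 2 without 1 rat. Averaged over ages, 1 of 15 was called under every alternative run, and 1 to 2 without 1 rat, the second being Grin1 in the NTS without WKY 24 wk replicate 2 (0.32, edgeR adjusted p = 0.0468). Regional calls numbered 12 with DESeq2 and its size factors, 11 with no replicate block, 11 in WKY rats alone and 9 in SHRs alone. The counts of 0 for the change of the strain difference between ages and for the regional strain contrasts stayed 0 in every alternative run. Counts of 0 in a single region and age did not all stay 0, as for Grin2c in the NTS at 8 wk. No called value changed direction. The causes were not tested. Fits with no filter adjusted p over more genes and also estimated the TMM factors and the spread anew, and the part of each was not tested. Leaving out rats was not run for regional means, nor for the regional strain contrasts beyond the rats of 24 wk. With 3 WKY rats at 24 wk, and 21 to 28 counts of Grin2a per WKY library in the RVLM, depth and group size limit that comparison.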

Other observations

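Grin3b, the other GluN3 gene, is not among the members. Its median level was 25.6 CPM in the RVLM, 4.68 in the CVLM and 2.56 in the NTS, a log2 difference of 2.29 between RVLM and CVLM and of −3.02 between NTS and RVLM, both called in edgeR's quasi-likelihood test. The regional order of Grin3b was thus unlike that of Grin3a, which was highest in the NTS. The cholinergic marker Chat had medians of 243 CPM (RVLM), 61.0 (NTS) and 18.5 (CVLM), so both genes were highest in the RVLM but their order in the other regions was opposite. Grina, a transmembrane protein gene that shares the name but is no subunit, had medians of 666, 835 and 926 CPM in the NTS, CVLM and RVLM. Neither gene was called between strains in any region when averaged over ages.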
